A study of Mus musculus with 48 samples.

Results

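Most genes described here hold back the cell division cycle or belong to the p53 response. The CDK inhibitors are Cdkn1a (p21), Cdkn1b (p27), Cdkn1c (p57), Cdkn2a (p16 and Arf), Cdkn2b (p15) and Cdkn2c (p18). The p53 genes are the transcription factor gene Trp53 and its targets Mdm2 and Ccng1. Ccnd1, which encodes cyclin D1 and acts in entry into the cycle, is described with them. Together they form a list of 10 genes out of a series in which 13174 genes were tested. The list was chosen with earlier results of these data known. Each was followed through the probe set that is annotated to it alone and has the highest mean over the 48 arrays. The supplied annotation gave such a probe set for 9 of the 10, and Trp53 is not analysed here. Cdkn2a lay at the lowest deposited value, 2.20 on the log2 scale, on 47 of 48 arrays and at 2.21 on the other, so it did not pass the filter on low values. The remaining 8 genes lay above the filter value of 2.28 on all 48 arrays and were tested.

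The study removed much of the kidney mass of mice by subtotal nephrectomy (Nx) or gave them a sham operation at 9 weeks of age, in the strain FVB, which develops renal lesions after this operation, and in C57BL/6 (B6 below), which is described as not predisposed. Whole-kidney RNA was read on Affymetrix arrays 2, 28 and 53 days after surgery, which makes 12 groups of 4 mice: FVB Nx and FVB sham, and B6 Nx and B6 sham, at each day. The labels give no sex, and name no genetic modification or drug. The p-values rest on the spread between mice within groups, pooled over all 12 groups.

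A cell enters the division cycle when D-type cyclins such as cyclin D1 activate CDK4 and CDK6, which inactivate the retinoblastoma protein and release E2F factors that switch on the genes of DNA replication. The INK4 inhibitors (p15, p16 and p18) bind CDK4 and CDK6, while the CIP/KIP inhibitors (p21, p27 and p57) act on cyclin-CDK complexes more widely. The p53 protein induces Cdkn1a when DNA is damaged or a cell is stressed, and it also induces Mdm2, whose product marks p53 for degradation, and Ccng1, which encodes cyclin G1. In the kidney, p21 is known to be induced in injured tubules, and p57 is a protein of mature podocytes.

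The arrays carried kidney RNA by their markers, and some carried RNA of pancreas as well. The mean log2 level of 6 proximal tubule markers lay between 12.35 and 12.88 on the sham arrays, and on Nx arrays between 11.15 and 11.92 in FVB at days 2 and 53 and between 11.22 and 11.99 in B6 at day 2. The mean of 6 tubular injury markers was 9.23 to 9.63 in FVB Nx kidneys at day 2, against 5.86 to 6.15 in sham kidneys, and 10.29 to 10.78 at day 53, against 5.70 to 6.04. In B6 it was 9.48 to 10.22 in Nx kidneys at day 2, against 6.16 to 6.75 in sham kidneys, and 7.38 to 8.00 at day 53, against 5.66 to 6.04. All 6 fibroblast markers were called higher in each of the 6 surgery comparisons (7.35% to 25.9% of all genes), with medians of 2.51 to 4.07. The part of these shifts in the results below was not tested. The mean of 8 pancreatic enzyme genes passed 5 on 16 of 24 Nx arrays and on 2 of 24 sham arrays, and reached 14.93 in FVB Nx kidneys at day 2. Leaving those arrays out keeps 1 Nx array per strain at day 2 and at day 28 and 2 at day 53, so each such value below rests on very few mice. Where 1 Nx array is left, as at days 2 and 28, that mouse is assumed to vary like the other groups, and the p-value holds no spread of its own Nx group. Of 36 calls made on the 8 genes over all 18 comparisons, 24 were kept without these arrays and 12 were lost, and 12 other calls appeared. The part of pancreatic RNA in the results was not tested beyond these values. The Gapdh 3' minus 5' log2 difference, a measure of RNA quality, was higher on average in Nx than in sham kidneys in all 6 comparisons of strain and day (0.30 against 0.16 in FVB at day 2, and 0.16 against 0.09 in FVB at day 53). The same difference for Actb was lower in Nx kidneys in 5 of the 6 (2.21 against 2.40 in FVB at day 2, and 1.91 against 2.17 in FVB at day 53), and higher in B6 at day 53 (2.25 against 2.18).

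Because many genes moved with surgery, a count of these genes is read against the share of all genes that passed the same test, an adjusted p below 0.05 in limma. In FVB, 3 of the 8 genes passed at day 2, where 54.8% of all genes did, 2 at day 28 (16.2% of all genes) and 5 at day 53 (53.7% of all genes). In B6, 4 passed at day 2 (44.6% of all genes), 2 at day 28 (19% of all genes) and 2 at day 53 (14.7% of all genes). The 4 Nx and 4 sham values did not overlap for 3 of the 8 genes in FVB at day 2 (43.9% of all genes), 1 at day 28 (21.2%) and 4 at day 53 (46.1%), and in B6 for 4 at day 2 (40.1%), 1 at day 28 (19.6%) and 2 at day 53 (21.7%). These counts lie near the shares of all genes and are no result about the list as a whole, so each gene is described on its own. By direction, 1 was higher and 2 lower in FVB at day 2 (24.8% and 30% of all genes), 1 and 1 at day 28 (7.35% and 8.81%) and 4 and 1 at day 53 (25.9% and 27.8%). The B6 counts were 3 higher and 1 lower at day 2 (20.2% and 24.4%), 2 and 0 at day 28 (9.85% and 9.14%), and 2 and 0 at day 53 (8.03% and 6.68%). In the surgery comparisons the median change over all genes lay between -0.03 and -0.01. Shifting each array to one median lowered the changes of these genes by 0.05 to 0.17.

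**Figure D1:**
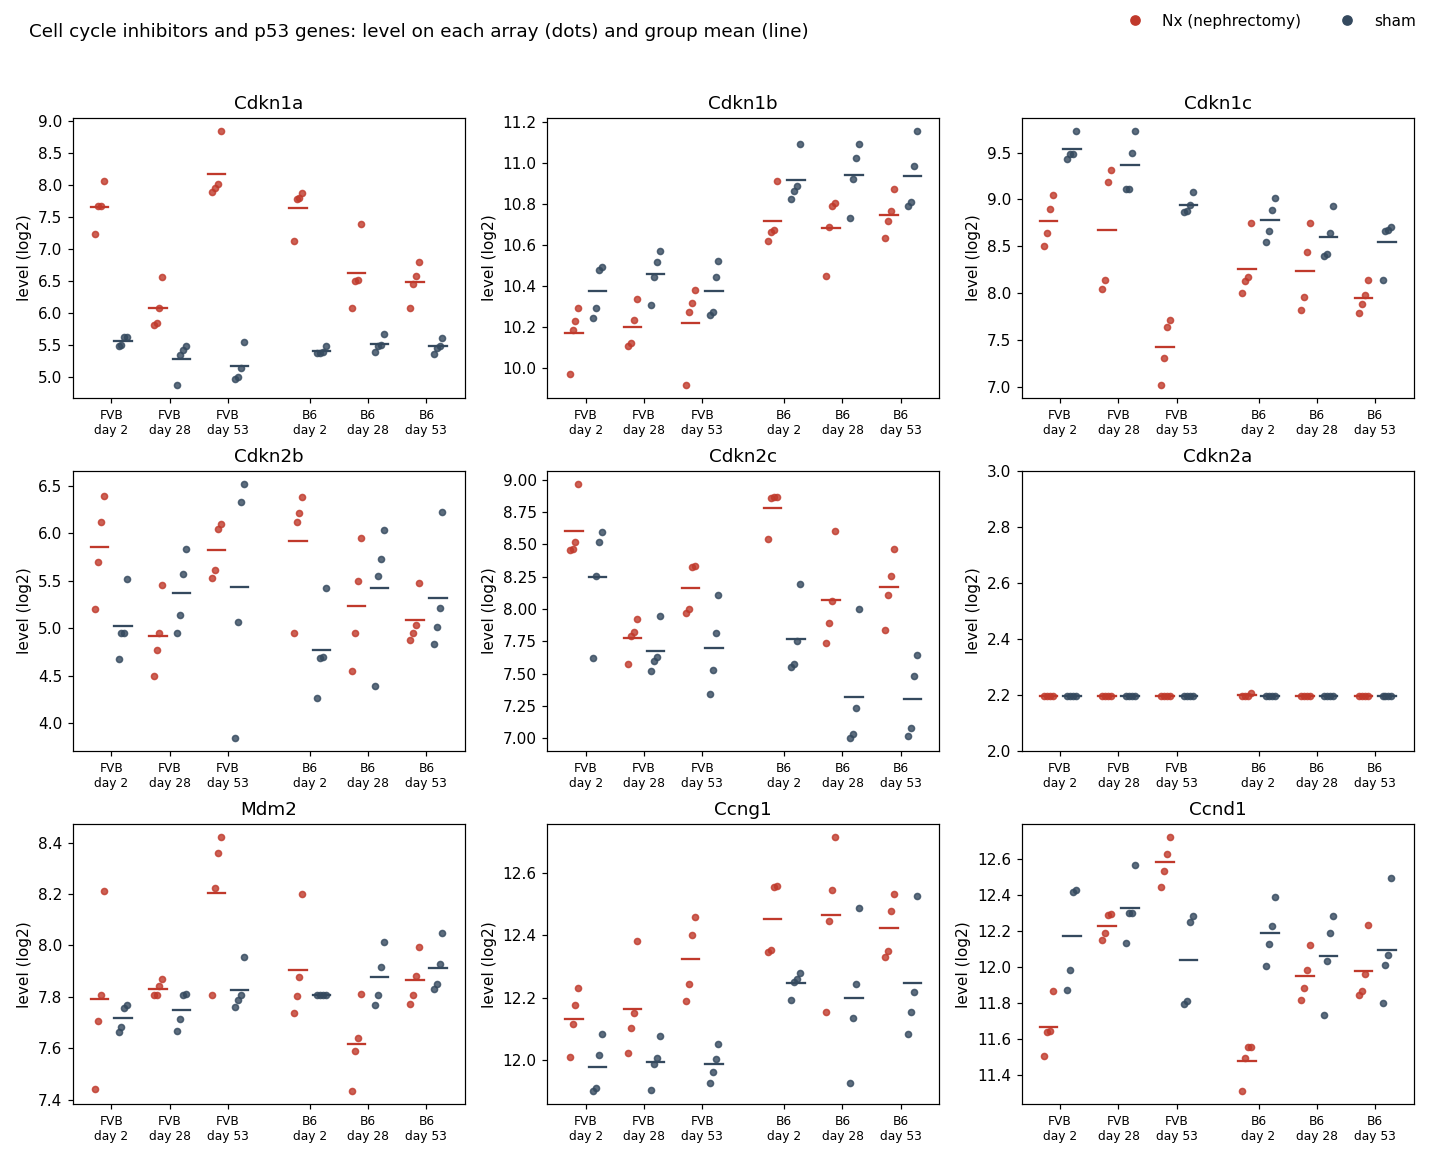
Level (log2, vertical axis) of the 9 genes with a probe set on each of the 48 arrays (dots) and the mean of each group of 4 (lines), by strain and day, with Nx in red and sham in dark blue. Cdkn1a lay higher in every Nx group, with no overlap with its sham group, Cdkn1c reached its lowest values in FVB Nx kidneys at day 53, and Cdkn2a was at the lowest value on 47 of 48 arrays.

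Of the 8 genes, Cdkn1a alone was called in all 6 surgery comparisons, always higher after Nx. At day 2 its log2 level was 7.24, 7.67, 7.68 and 8.08 in FVB Nx kidneys, against 5.49, 5.50, 5.62 and 5.62 in FVB sham kidneys. The 4 Nx values all lay above the 4 sham values, a rise of 2.11 ± 0.21 (SE) on the log2 scale or 4.31-fold, with an adjusted p of 1.02e-10. In B6 at day 2 it was 7.13, 7.78, 7.80 and 7.88 in Nx kidneys, against 5.38, 5.39, 5.39 and 5.49 in sham kidneys, a rise of 2.24 ± 0.21 (adjusted p = 6.54e-11). The change at day 2 did not pass the test of a difference between the strains, at -0.13 in FVB minus B6 with a 95% interval of -0.74 to 0.48. Without the arrays with pancreatic RNA the rises at day 2 were 2.52 in FVB (adjusted p = 4.2e-08) and 2.37 in B6 (adjusted p = 1.97e-07), with 1 Nx mouse in each.

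At day 28 Cdkn1a remained higher after Nx, by less. In FVB it was 5.81, 5.84, 6.08 and 6.56 in Nx kidneys, against 4.88, 5.35, 5.42 and 5.49 in sham kidneys. These groups did not overlap, and the rise of 0.79 ± 0.21 had an adjusted p of 0.00777, though it was 0.63 without Nx mouse 7 (adjusted p = 0.0611) and 0.63 without the arrays with pancreatic RNA (adjusted p = 0.173). B6 kidneys at day 28 had 6.09, 6.50, 6.51 and 7.40 in Nx kidneys, against 5.40, 5.49, 5.50 and 5.68 in sham kidneys, a rise of 1.11 ± 0.21 (adjusted p = 0.000199). Without the arrays with pancreatic RNA the B6 rise was 1.94 (adjusted p = 4.65e-06), and it then rested on 1 Nx mouse. The difference between the strains at day 28 was -0.32 with all arrays (adjusted p = 1) and -1.31 without those arrays (adjusted p = 0.0245). On the second Cdkn1a probe set the FVB rise at day 28 was 0.70 (adjusted p = 0.102).

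At day 53 the rise was larger in FVB. There Cdkn1a was 7.89, 7.96, 8.03 and 8.85 in Nx kidneys, against 4.98, 5.00, 5.15 and 5.55 in sham kidneys, a rise of 3.01 ± 0.21 or 8.08-fold (adjusted p = 1.23e-14). In B6 it was 6.09, 6.46, 6.58 and 6.80 in Nx kidneys, against 5.37, 5.46, 5.49 and 5.61 in sham kidneys, a rise of 1.00 ± 0.21 (adjusted p = 0.000862). All 4 FVB Nx values lay above all 4 B6 Nx values. The change was 2.01 ± 0.30 higher in FVB than in B6 (adjusted p = 3.58e-06, 95% interval 1.40 to 2.62), and 2.48 without the arrays with pancreatic RNA (adjusted p = 6.03e-07). A second Cdkn1a probe set gave a difference of 2.89 between the strains at day 53, while its rise in B6 at that day was 0.71 (adjusted p = 0.102). Without the arrays with pancreatic RNA the rises at day 53 were 3.27 in FVB (adjusted p = 1.1e-11) and 0.79 in B6 (adjusted p = 0.0079).

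Over time, the change passed for 1 of the 8 genes between days 2 and 28 in FVB (25.2% of all genes), 3 between days 28 and 53 (26.3%) and 2 between days 2 and 53 (11.8%). In B6 the counts were 2 (8.86% of all genes), 0 (0%) and 2 (13%), and in limma none of the 8 had an unadjusted p below 0.05 between days 28 and 53 in B6. The Cdkn1a change fell by 1.32 ± 0.30 between day 2 and day 28 in FVB (adjusted p = 0.00123) and rose by 2.22 ± 0.30 between day 28 and day 53 (adjusted p = 8.01e-07). The FVB change at day 53 was 0.91 larger than at day 2 (adjusted p = 0.0425), a call that was lost without the arrays with pancreatic RNA (0.76, adjusted p = 0.114) and in 15 of 26 other alternative settings, among them leaving out Nx mouse 8 of day 53 (0.68, adjusted p = 0.14). In B6 the change fell by 1.13 ± 0.30 between day 2 and day 28 (adjusted p = 0.0126), but by 0.44 without the arrays with pancreatic RNA (adjusted p = 0.563). Between day 28 and day 53 it moved by -0.11 in B6 (adjusted p = 1), and by -1.14 without those arrays (adjusted p = 0.026). Between day 2 and day 53 it fell by 1.24 in B6 (adjusted p = 0.00404), and by 1.58 without them (adjusted p = 0.00127).

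The promoter stretches of the 3 measured p53 targets that hold a match to the p53 half-site are shown to give the sequence context of these genes. Sequences are from RefSeq on GRCm38.p6, and of the 10 genes 8 had an entry. The p53 half-site, a motif of 10 bases, was searched on both strands from 250 bases before to 50 after each start, and each match is in capitals.
Cdkn1a, the upstream of its 2 starts, chr17:29090876-29090967, plus strand: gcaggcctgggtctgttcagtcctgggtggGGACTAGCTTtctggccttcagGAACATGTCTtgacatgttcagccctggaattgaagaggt
Mdm2, chr10:117710905-117710974, minus strand: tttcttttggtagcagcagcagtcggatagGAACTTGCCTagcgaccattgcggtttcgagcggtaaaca
Ccng1, chr11:40755432-40755501, minus strand: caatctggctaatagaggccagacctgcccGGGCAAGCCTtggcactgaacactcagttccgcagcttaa
The Cdkn1a window held 2 half-sites, at -73 and -51 from the start, within 13 bases of each other. Such a pair occurred in 24 of 32851 promoter windows (0.0731%), and a single half-site in 8.36% of them. Mdm2 had 1 half-site, at -186, and Ccng1 had 1, at -185. The window at the downstream start of Cdkn1a and the windows of Cdkn1b, Cdkn2a, Cdkn2b and Cdkn2c held none, and that of Trp53 held 1, at -75. These are matches of letters in a fixed window and not binding data.

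Mdm2 and Ccng1, the other measured p53 targets among these genes, moved far less than Cdkn1a. At day 53 Mdm2 was 7.81, 8.22, 8.36 and 8.42 in FVB Nx kidneys, against 7.76, 7.79, 7.81 and 7.95 in FVB sham kidneys. One Nx value lay inside the sham range, and the rise was 0.38 ± 0.11 (adjusted p = 0.00407). It was 0.36 on the second Mdm2 probe set (adjusted p = 0.281) and 0.21 when each array was shifted to a common median (adjusted p = 0.0885). In B6 at day 53 Mdm2 was 7.77, 7.81, 7.88 and 7.99 in Nx kidneys, against 7.83, 7.85, 7.93 and 8.05 in sham kidneys, a change of -0.05 with an adjusted p of 0.874. The difference between the strains, 0.43 ± 0.16 (adjusted p = 0.0371), was lost under 15 of 26 alternative settings that kept the arrays with pancreatic RNA. Without those arrays, with 2 Nx mice per strain, the day 53 difference was 0.59 (adjusted p = 0.000166). The FVB rise was then 0.46 (adjusted p = 1.51e-05). At day 2, where Mdm2 was not called in either strain, the changes of 0.07 in FVB and 0.10 in B6 were 0.50 (adjusted p = 0.000179) and 0.39 (adjusted p = 0.00246) without the arrays with pancreatic RNA, with 1 Nx mouse in each. On 8 of the 48 arrays Mdm2 had one identical deposited value, 7.81, for which the sources used here give no reason. Shared values also occurred for Cdkn2b, with 4.95 on 6 arrays, and for Cdkn1a, with 5.49 on 4 arrays.

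Ccng1 rose in FVB at day 53, where it was 12.19, 12.24, 12.40 and 12.46 in Nx kidneys, against 11.92 to 12.05 in the 4 sham kidneys. The groups did not overlap, and the rise was 0.34 ± 0.10 (adjusted p = 0.00343), or 0.18 under the shift to a common median (adjusted p = 0.114). In the other 5 surgery comparisons the Ccng1 change lay between 0.16 and 0.27 and did not pass. The difference between the strains at day 53 was 0.16, with a 95% interval of -0.12 to 0.44. Another Ccng1 probe set, of lower mean, gave larger changes, 0.71 in FVB at day 53, 0.66 in B6 at day 2, 0.47 in B6 at day 53 and 0.46 in FVB at day 28, each with an adjusted p below 0.05, so the choice of probe set sets how much Ccng1 is seen to move.

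**Figure D2:**
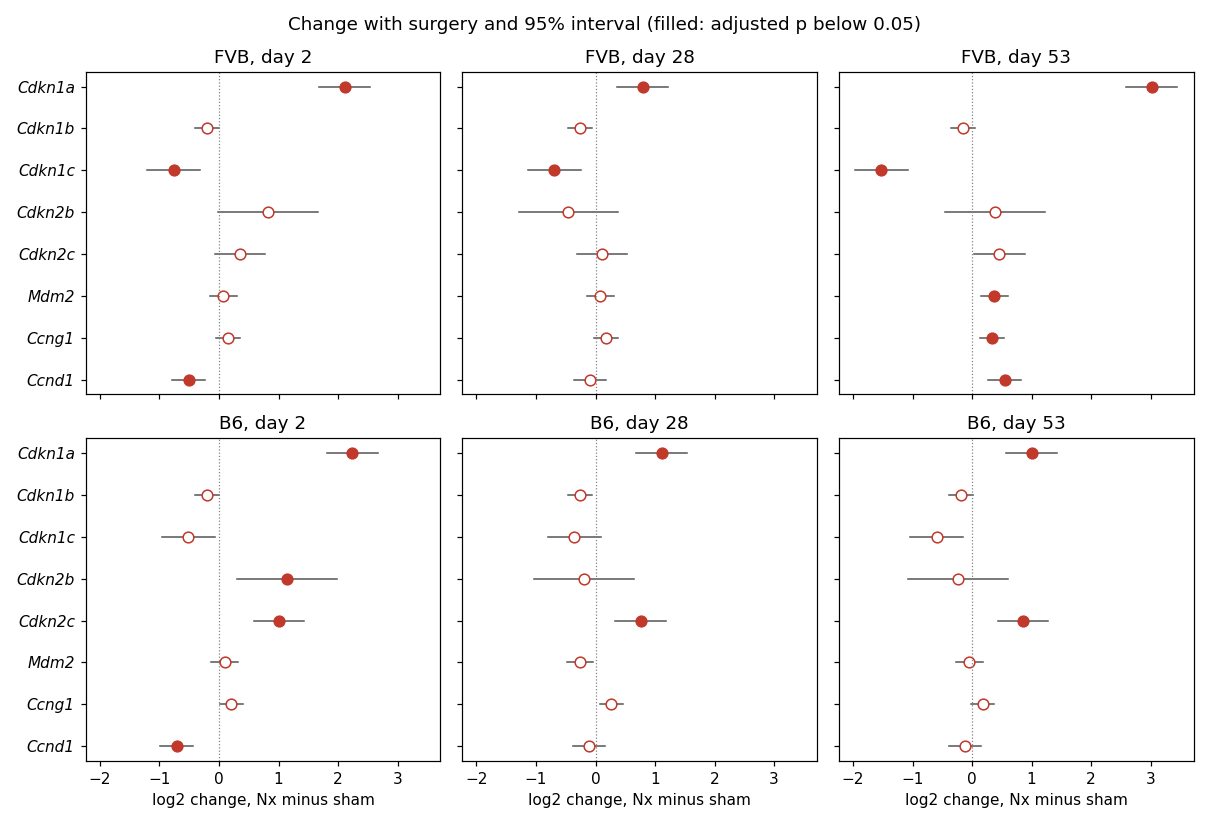
Change with surgery (log2, Nx minus sham, horizontal axis) of the 8 tested genes in FVB (upper row) and B6 (lower row) at days 2, 28 and 53, with 95% intervals as bars and filled points where the adjusted p is below 0.05. Cdkn1a is right of 0 in all 6 panels, at 3.01 in FVB at day 53, and Ccnd1 is left of 0 at day 2 in both strains and right of 0 in FVB at day 53.

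A list of 31 other p53 target genes was set beside them, of which 27 were tested. In FVB at day 53, 15 were higher and 3 lower after Nx (25.9% and 27.8% of all genes), with a median change of 0.47, against a median of -0.01 over all genes. Pmaip1, which encodes the cell death protein NOXA, rose by 2.16 ± 0.18 (adjusted p = 5.22e-13), Eda2r by 2.30 ± 0.29 (adjusted p = 9.17e-09), Psrc1 by 1.83 ± 0.24 (adjusted p = 3.6e-08) and the growth inhibitor Btg2 by 1.44 ± 0.20 (adjusted p = 1.16e-07). For B6 at day 53, 6 were higher and 0 lower (8.03% and 6.68% of all genes), with a median of 0.11, and Phlda3, an inhibitor of AKT, rose by 1.64 ± 0.25 (adjusted p = 8.18e-06). At day 2 the numbers were 12 higher and 4 lower in FVB (24.8% and 30% of all genes) and 10 higher and 3 lower in B6 (20.2% and 24.4%), and the largest rises were those of Psrc1 (2.15), Phlda3 (1.80) and Apaf1 (1.43) in FVB and of Psrc1 (2.28), Plk2 (1.37) and Gadd45a (1.36) in B6. Phlda3 and Plk2 were higher in all 6 surgery comparisons. At day 28, 4 were higher and 3 lower in FVB (7.35% and 8.81% of all genes), and 7 higher and 1 lower in B6 (9.85% and 9.14%).

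Of these 27 genes, the day 53 difference between the strains (FVB minus B6) was called above 0 for 8 and called below 0 for 1. The shares of all genes were 14.2% and 14.9%. The gene called below 0 was Ei24, with changes of -0.30 in FVB and -0.06 in B6. The 8 include Pmaip1, Btg2 and Eda2r, whereas the Phlda3 change differed by -0.04 and was not called. Some targets were lower after Nx. Xpc, a damage recognition gene, was lower by 0.69 in FVB at day 2 (adjusted p = 5.51e-06) and by 0.44 in B6 (adjusted p = 0.00243), and Rrm2b was lower by 0.40 in FVB at day 53 (adjusted p = 0.000132). The mean of the 27 genes was 7.14 to 7.29 in FVB Nx kidneys at day 53, against 6.62 to 6.74 in FVB sham kidneys, and 6.74 to 6.93 in B6 Nx kidneys, against 6.57 to 6.65 in B6 sham kidneys.

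**Figure D3:**
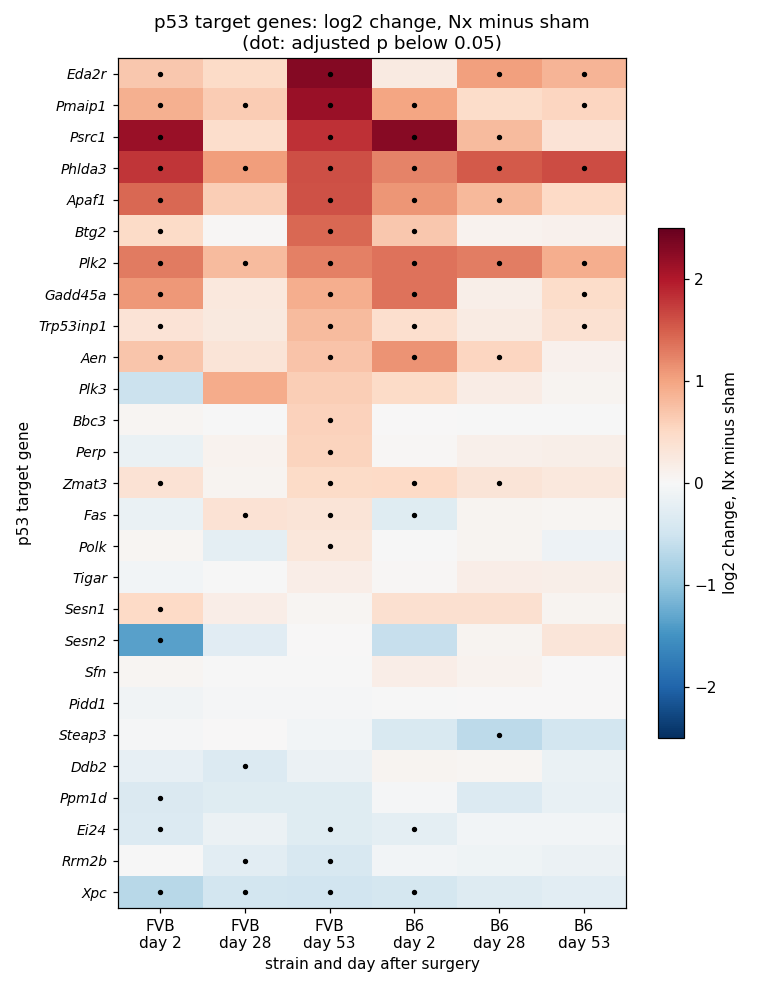
Change with surgery (log2, Nx minus sham, colour) of the 27 tested p53 target genes (rows, ordered by the change in FVB at day 53) by strain and day (columns), with a dot where the adjusted p is below 0.05. The FVB day 53 column holds 15 genes called higher and 3 called lower, and the B6 day 53 column 6 called higher.

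The genes that regulate p53 were called in both directions at day 2 in both strains and in FVB at days 28 and 53. Of 13 tested, 4 were higher and 4 lower in FVB at day 2 (24.8% and 30% of all genes). In B6 at day 2 they were 3 and 4 (20.2% and 24.4%). At day 53 the counts were 3 and 3 in FVB (25.9% and 27.8%), and 0 and 2 in B6 (8.03% and 6.68%). These counts lie near the shares of all genes and are no result about the list. Chek1, a checkpoint kinase that is itself high in dividing cells, rose by 2.47 ± 0.23 in FVB (adjusted p = 1e-11) and by 2.48 ± 0.23 in B6 (adjusted p = 2.21e-11) at day 2, and by 2.30 ± 0.23 in FVB at day 53 (adjusted p = 3.79e-11). In FVB at day 28, Chek1 rose by 0.85 (adjusted p = 0.00673) and Chek2 by 0.82 (adjusted p = 0.00571). Rchy1 was called lower there (-0.21, adjusted p = 0.0244). Hipk2, a kinase that activates p53, was lower in all 6 surgery comparisons, by 0.22 to 0.62.

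Cdkn1c went against Cdkn1a in FVB: it was lower after Nx at every day, and most at day 53. At day 53 its log2 level was 7.02, 7.31, 7.63 and 7.72 in FVB Nx kidneys, against 8.87, 8.88, 8.94 and 9.08 in FVB sham kidneys. The groups were more than 1 log2 unit apart, and Cdkn1c fell by 1.52 ± 0.22 (adjusted p = 2e-07). In B6 at day 53 it was 7.79, 7.88, 7.98 and 8.14 in Nx kidneys, against 8.14, 8.66, 8.67 and 8.70 in sham kidneys, a change of -0.60 ± 0.22 (adjusted p = 0.0621). The groups touch at 8.14, where sham mouse 6 stands apart from its group, and without that mouse the change was -0.73 (adjusted p = 0.0333). The change differed between the strains by -0.93 ± 0.31 (adjusted p = 0.0213), and by -0.79 without that mouse (adjusted p = 0.0601) or without FVB Nx mouse 7 of day 53 (adjusted p = 0.0567). The FVB change moved by -0.83 between day 28 and day 53 (adjusted p = 0.044), a call lost under 12 of 25 settings that kept the arrays with pancreatic RNA, with adjusted p up to 0.143.

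At day 2, Cdkn1c was 8.50, 8.65, 8.90 and 9.05 in FVB Nx kidneys, against 9.43, 9.49, 9.49 and 9.73 in FVB sham kidneys, lower by 0.76 ± 0.22 (adjusted p = 0.00351). The B6 change at day 2 was -0.51 (adjusted p = 0.0545) and the groups overlapped. At day 28 it was 8.05, 8.14, 9.19 and 9.31 in FVB Nx kidneys, against 9.11, 9.11, 9.50 and 9.73 in sham kidneys, with 2 Nx mice far below the other 2. The day 28 change of -0.69 (adjusted p = 0.0253) was -0.48 without Nx mouse 3 (adjusted p = 0.159) and -0.51 without Nx mouse 7 (adjusted p = 0.151), the 2 low mice, and it was also lost without sham mouse 1 or mouse 2. The B6 change at day 28 was -0.36 (adjusted p = 0.283). Without the arrays with pancreatic RNA the FVB changes were -0.64 at day 2 (adjusted p = 0.0309), -0.26 at day 28 (adjusted p = 0.683) and -1.47 at day 53 (adjusted p = 6.88e-07). The B6 changes were then -0.78 at day 2 (adjusted p = 0.0131) and -0.85 at day 28 (adjusted p = 0.011), each resting on 1 Nx mouse.

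Some podocyte markers were also lower. Of 5 tested in FVB, 2 were lower and 1 higher at day 2 (30% and 24.8% of all genes), 3 were lower and 0 higher at day 28 (8.81% and 7.35%), and 3 were lower and 0 higher at day 53 (27.8% and 25.9%), with a median of -1.22 at day 53. In FVB at day 53 Nphs1, the slit diaphragm gene nephrin, fell by 2.12 ± 0.26 (adjusted p = 4.36e-09) and Podxl by 1.51 ± 0.13 (adjusted p = 3.85e-12). The B6 kidneys had 3 lower at each day (24.4%, 9.14% and 6.68% of all genes at days 2, 28 and 53). They had 1 higher at day 2 (20.2%). In B6 at day 53 the median of the markers was -0.53, and the Cdkn1c change was -0.60 (adjusted p = 0.0621 in limma). The mean of the 5 markers lay between 6.16 and 6.77 in FVB Nx kidneys at day 53, against 7.23 to 7.63 in sham kidneys, and between 7.08 and 7.38 in B6 Nx kidneys, against 7.56 to 7.89 in sham kidneys. Their part in the Cdkn1c result was not tested, and in whole-kidney RNA fewer cells of a type and less RNA per cell cannot be told apart.

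Of the INK4 genes Cdkn2c and Cdkn2b, Cdkn2c was called higher after Nx in B6 at each day, and Cdkn2b at day 2 only. Neither passed in FVB, and the difference between the strains did not pass for either. Cdkn2c, which encodes p18, was at 8.54, 8.86, 8.86 and 8.87 in B6 Nx kidneys at day 2, against 7.55, 7.58, 7.75 and 8.20 in B6 sham kidneys. These groups did not overlap, and the rise was 1.01 ± 0.21 (adjusted p = 0.000119). It was 0.76 at day 28 (adjusted p = 0.00839), or 0.58 without Nx mouse 3 (adjusted p = 0.0751), and 0.86 at day 53 (adjusted p = 0.00326). Without the arrays with pancreatic RNA the rises in B6 were 0.77 at day 2 (adjusted p = 0.129), 1.18 at day 28 (adjusted p = 0.0273) and 0.74 at day 53 (adjusted p = 0.112).

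In FVB, Cdkn2c was at 8.46, 8.46, 8.52 and 8.97 in Nx kidneys at day 2, against 7.62, 8.26, 8.52 and 8.60 in sham kidneys, which overlap. Its FVB changes were 0.35 at day 2 (adjusted p = 0.152), 0.10 at day 28 (adjusted p = 0.831) and 0.46 at day 53 (adjusted p = 0.0608). The difference between the strains was -0.66 at day 2 (95% interval -1.26 to -0.06, adjusted p = 0.208), -0.65 at day 28 (adjusted p = 1) and -0.40 at day 53 (adjusted p = 0.343), so a strain difference did not pass at any day. Sham FVB kidneys had a higher Cdkn2c level than sham B6 kidneys, by 0.41 ± 0.12 (adjusted p = 0.00721).

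Cdkn2b, which encodes p15, had the largest standard error of the 8 genes, at 0.41 for each surgery comparison. At day 2 it was 4.95, 6.12, 6.21 and 6.38 in B6 Nx kidneys, against 4.26, 4.68, 4.70 and 5.42 in B6 sham kidneys, with 1 Nx value inside the sham range. The rise of 1.15 ± 0.41 (adjusted p = 0.0221) was lost on leaving out any 1 of Nx mice 3, 5 and 11 or sham mouse 2, with values from 0.98 to 1.08, and it was 1.35 without the arrays with pancreatic RNA (adjusted p = 0.193). The difference between the strains at day 2 was -0.32 (adjusted p = 0.827). In FVB at day 2 the change was 0.83 ± 0.41 (adjusted p = 0.0888), and 1.04 without Nx mouse 5 (adjusted p = 0.0445). At days 28 and 53 the changes lay between -0.45 and 0.38, and sham values in FVB at day 53 ran from 3.84 to 6.52. Cdkn2a lay at the lowest value on all arrays but 1, where it was 2.21, and a change in its RNA was not detectable on these arrays.

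Cdkn1b, which encodes p27, was not called in any surgery comparison on the deposited values, with changes between -0.26 and -0.15 (adjusted p between 0.0601 and 0.221). In FVB at day 28 it was 10.11, 10.12, 10.23 and 10.34 in Nx kidneys, against 10.31, 10.44, 10.52 and 10.57 in sham kidneys, and these overlap at 1 value. Its 95% intervals for the 6 changes reach no further than -0.46. With each array shifted to one median, Cdkn1b was called lower in 5 of the 6, by 0.38, 0.31 and 0.32 in FVB at days 2, 28 and 53 and by 0.32 and 0.33 in B6 at days 2 and 28, so its call depends on the scaling. In sham kidneys the strains differed: sham FVB kidneys were lower than sham B6 kidneys by 0.53 ± 0.06 (adjusted p = 7.36e-10). A second Cdkn1b probe set gave 0.28 ± 0.25 for that strain difference (adjusted p = 0.457), so the strain difference rests on the probe set used. The mean level of that second probe set was 4.69, against 10.56 for the main one, and its standard error was larger.

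**Figure D4:**
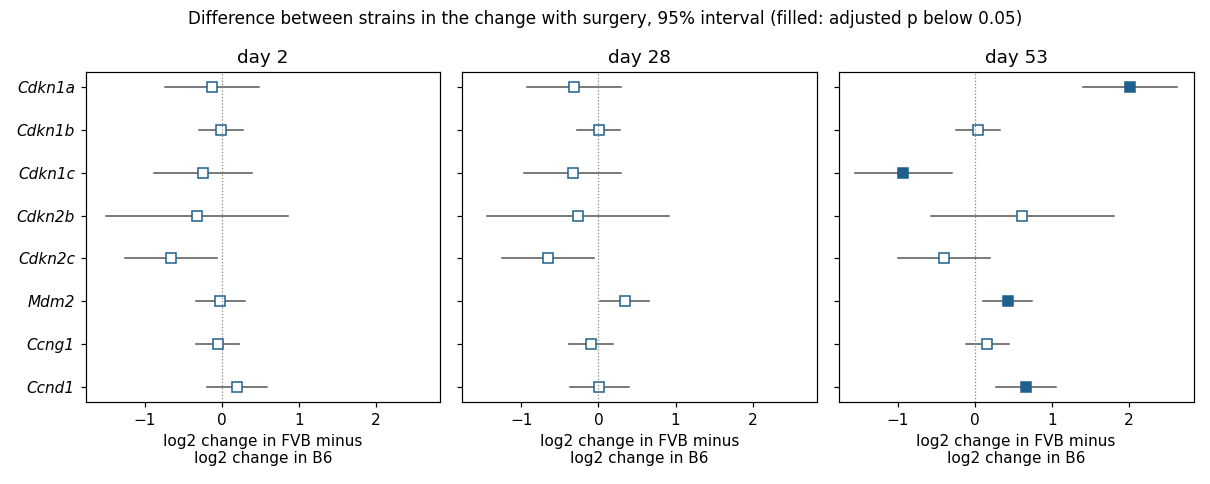
Difference between the strains in the change with surgery (log2 change in FVB minus log2 change in B6, horizontal axis) of the 8 tested genes at days 2, 28 and 53, with 95% intervals as bars and filled points where the adjusted p is below 0.05. No gene is filled at day 2 or day 28, and 4 are filled at day 53: Cdkn1a at 2.01, Ccnd1 at 0.66 and Mdm2 at 0.43 to the right of 0, and Cdkn1c at -0.93 to the left.

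Cyclin D1 RNA was lower after Nx at day 2 in both strains and higher at day 53 in FVB. At day 2 Ccnd1 was 11.51, 11.64, 11.64 and 11.87 in FVB Nx kidneys, against 11.87, 11.98, 12.42 and 12.43 in FVB sham kidneys, lower by 0.51 ± 0.14 (adjusted p = 0.00151). In B6 it was 11.31, 11.49, 11.55 and 11.55 in Nx kidneys, against 12.01, 12.13, 12.23 and 12.39 in sham kidneys, lower by 0.71 ± 0.14 (adjusted p = 4.13e-05). The groups did not overlap in either strain. Without the arrays with pancreatic RNA the changes at day 2 were -0.53 in FVB (adjusted p = 0.103) and -0.69 in B6 (adjusted p = 0.0439). At day 28 the changes were -0.10 in FVB and -0.11 in B6, with 95% intervals that include 0.

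At day 53 Ccnd1 was 12.44, 12.54, 12.63 and 12.72 in FVB Nx kidneys, against 11.80, 11.81, 12.25 and 12.29 in FVB sham kidneys. All Nx values were higher, by 0.55 ± 0.14 on average (adjusted p = 0.000744). In B6 it was 11.85, 11.87, 11.96 and 12.23 in Nx kidneys, against 11.80, 12.01, 12.07 and 12.50 in sham kidneys, a change of -0.12 (adjusted p = 0.667). The strain difference at day 53 was 0.66 ± 0.19 (adjusted p = 0.00739), and the FVB change moved by 1.06 ± 0.19 between day 2 and day 53 (adjusted p = 0.000149). All 3 Ccnd1 probe sets gave a fall at day 2 in both strains and a rise in FVB at day 53, each with an adjusted p below 0.05, and without the arrays with pancreatic RNA the strain difference was 0.69 (adjusted p = 0.0676). On the Ccnd1 probe set of lowest mean it was 0.66 (adjusted p = 0.186). In B6 the Ccnd1 change moved by 0.59 between day 2 and day 53 (adjusted p = 0.0335), a call lost without the arrays with pancreatic RNA (0.50, adjusted p = 0.372) and under 11 of 27 other settings. The B6 change from day 2 to day 28, 0.60 (adjusted p = 0.0401), was likewise lost without those arrays (0.66, adjusted p = 0.35) and under 14 of 27 other settings.

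Other genes of the G1 step were called in both directions. Of 23 tested in FVB, 15 were higher and 4 lower at day 2 (24.8% and 30% of all genes), 6 and 2 at day 28 (7.35% and 8.81%) and 12 and 4 at day 53 (25.9% and 27.8%). In B6, 16 were higher and 3 lower at day 2 (20.2% and 24.4% of all genes), 5 and 3 at day 28 (9.85% and 9.14%) and 5 and 1 at day 53 (8.03% and 6.68%). Ccnd2, which encodes cyclin D2, rose by 1.70 ± 0.14 in FVB at day 2 (adjusted p = 4.39e-13) and by 0.75 in B6 (adjusted p = 2.02e-05). Cdk6, a partner kinase of D cyclins, rose by 1.81 ± 0.14 in FVB at day 2 and by 2.41 ± 0.14 at day 53 (adjusted p = 1.11e-16). Rbl2, a member of the retinoblastoma family found in resting cells, was lower in all 6 comparisons, by 0.25 to 0.76. Cdkn2d, another INK4 inhibitor gene, rose at day 2 by 0.51 in FVB (adjusted p = 0.000848) and by 0.79 in B6 (adjusted p = 2.71e-06).

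Genes of DNA replication and mitosis were called higher after Nx in all 6 comparisons, in part of the list at day 28 and in B6 at day 53. Of 15 tested, 15 were higher at day 2 in both strains (24.8% of all genes in FVB and 20.2% in B6). Their medians were 3.14 in FVB and 3.76 in B6. At day 28, 11 were higher in both (7.35% of all genes in FVB and 9.85% in B6). At day 53, 15 were higher in FVB (25.9% of all genes), with a median of 2.79, and 9 in B6 (8.03%), with a median of 1.18. Mki67, the Ki-67 gene, rose by 5.10 ± 0.42 in FVB at day 53 (adjusted p = 7.09e-13) and by 2.66 ± 0.42 in B6 (adjusted p = 1.99e-05). Of the 15, 12 had a larger change in FVB than in B6 at day 53, beside 14.2% of all genes. Whole-kidney RNA does not show whether the same cells held both.

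**Figure D5:**
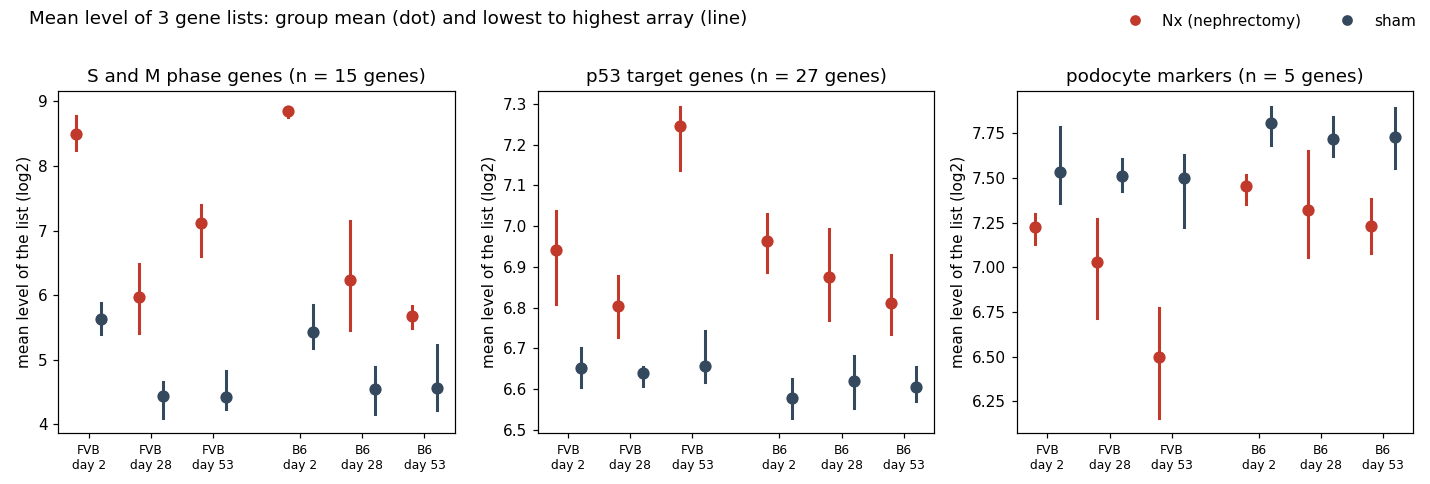
Mean log2 level of the 15 S and M phase genes, the 27 p53 target genes and the 5 podocyte markers that were tested (vertical axes), by strain and day, with Nx in red and sham in dark blue, dots for group means and bars from the lowest to the highest array. The S and M phase mean lay between 6.60 and 7.40 in FVB Nx kidneys at day 53 and between 5.49 and 5.83 in B6 Nx kidneys, and the podocyte mean was lowest in FVB Nx kidneys at day 53.

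The genes often measured with senescence, in which p21 and p16 have a known role, moved in both directions. Of 10 tested, 6 were higher and 2 lower in FVB at day 53 (25.9% and 27.8% of all genes). In B6 at day 53, 3 were higher and none lower (8.03% and 6.68%). At day 2 the counts were 5 and 2 in FVB (24.8% and 30%), and 5 and 3 in B6 (20.2% and 24.4%). In FVB at day 53 the chemokine genes Ccl2 and Cxcl1 rose by 5.40 ± 0.49 (adjusted p = 6.62e-12) and 4.64 ± 0.45 (adjusted p = 3.83e-11), and Igfbp5 fell by 1.56 ± 0.18 (adjusted p = 1.34e-09). Lmnb1, which encodes lamin B1 and is low in senescent cells, rose by 1.52 ± 0.21 in FVB (adjusted p = 8.39e-08) and by 1.30 ± 0.21 in B6 (adjusted p = 3.03e-06) at day 2. Macrophage markers rose with them, with 8 of 8 higher in FVB at day 53 (25.9% of all genes) and 6 of 8 in B6 (8.03%). Their part in these results was not tested.

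In sham kidneys, 4 of the 8 genes differed between the strains (32.5% of all genes): Cdkn1c and Cdkn2c were higher in FVB than in B6, and Cdkn1b and Ccng1 were lower. The Ccng1 difference of -0.25 was -0.08 on its probe set of lowest mean (adjusted p = 0.478), and Ccnd1, not called at 0.07, was -0.40 and 0.57 on its other probe sets, both called. Cdkn1a did not pass, with a difference of -0.13 and a 95% interval of -0.38 to 0.12. Between day 2 and the later days, none of the 8 passed in FVB sham kidneys (3.58% of all genes) or B6 sham kidneys (0.782% of all genes), and 1 in each had an unadjusted p below 0.05. Of 15 replication and mitosis genes, 9 in FVB and 7 in B6 were lower in the later sham kidneys than at day 2. Among all 13174 genes, 278 in FVB and 65 in B6 were called lower there.

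The change with surgery differed between the strains for none of the 8 genes at day 2 (4.41% of all genes) or day 28 (0.129% of all genes), and for 4 at day 53 (29.1% of all genes). In limma, 1 of the 8 at day 2 and 2 at day 28 had an unadjusted p below 0.05. The genes whose group means followed Cdkn1a most closely over the 12 groups were Pdlim7, Egr2 and Plec, with Pearson correlations of 0.991, 0.989 and 0.989. For Ccnd1 they were Ackr4, Ttbk2 and Agap1, at 0.947, 0.927 and 0.926. These are descriptions over 12 points, with the genes picked from 13174 for their likeness.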

How the data were processed

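Kidney RNA of 48 mice, 4 in each of 12 groups, was read on arrays of 45101 probe sets. The authors' deposited values are on the log2 scale, from 2.20 to 16.2; MAS5 is listed in the submitters' processing notes without its role, and the normalization is not given in the sources used here. No detection calls were used, so the number of arrays limits the precision. Probe sets above the 40th percentile (2.28) on at least 4 arrays were kept, with 1 probe set per gene, that of the highest mean, which left 13174 genes. One limma fit (3.58.1, R 4.3.3) of 12 group means with an intensity trend gave 18 contrasts, with Benjamini-Hochberg adjustment over all genes and a threshold of 0.05. The fit was tested on simulated data. The members, lists and alternatives were chosen with earlier results of these data known. Named list genes are mainly those with the smallest p-values in a comparison, not those with the largest changes. Others were named after their values were seen. Mouse numbers do not establish a pairing: correlations of same-numbered Nx and sham mice ran from -0.251 to 0.378.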

Additional observations from a re-analysis of the deposited data

Results flagged for a closer look

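Some single arrays stood apart from the other 3 of their group. In Nx kidneys these were Cdkn1a at 8.85 in FVB mouse 8 of day 53 and at 7.13 in B6 mouse 9 of day 2, and Cdkn2c at 8.97 in FVB mouse 4 and 8.54 in B6 mouse 3 of day 2. Cdkn2a at 2.21 in B6 Nx mouse 11 of day 2 was the array above the lowest value. In B6 sham kidneys they were Cdkn1a at 5.49 in mouse 1 and Mdm2 at 7.81 in mouse 2 of day 2 (the other 3 arrays share one value that rounds to the same 7.81), and Cdkn1c at 8.14 in mouse 6 of day 53. These are 8 of 97 groups examined, and chance gives about 5%, or 1 in 20. That share does not hold for the Cdkn2a and Mdm2 groups. There the other 3 arrays shared one value, so any array that differed would be flagged.

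The change with surgery differed between strains or days in 14 of 72 tests. Between FVB and B6 at day 53 the differences were 2.01 for Cdkn1a, -0.93 for Cdkn1c, 0.43 for Mdm2 and 0.66 for Ccnd1. Between days in FVB they were -1.32 for Cdkn1a from day 2 to 28, 2.22 for Cdkn1a, -0.83 for Cdkn1c and 0.64 for Ccnd1 from day 28 to 53, and 0.91 for Cdkn1a and 1.06 for Ccnd1 from day 2 to 53. Between days in B6 they were -1.13 for Cdkn1a and 0.60 for Ccnd1 from day 2 to 28, and -1.24 for Cdkn1a and 0.59 for Ccnd1 from day 2 to 53.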

How the results depend on the processing

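Of 36 calls on single genes, 345 of 395 values under other settings kept direction and threshold, 49 lost the threshold and 1 reversed, and leaving out single arrays kept 405 of 464. The causes were not tested. Reversed values were -0.46 for the Mdm2 change from day 2 to 28 in FVB without the arrays with pancreatic RNA, and, for FVB against B6 sham kidneys on the second probe set, 0.28 for Cdkn1b and -0.40 for Ccnd1. The numbers of the 8 genes called moved as follows. For Nx against sham in FVB at day 28 it was 1 with only the arrays compared, 0 without pancreas arrays and 1 on second probe sets. In B6 at day 28 it was 4 with a median shift, 0 with only the arrays compared, 5 with array weights and 4 without pancreas arrays, and at day 53 it was 4, 1 and 1 with array weights, without pancreas arrays and on second probe sets. The strain difference at day 28 was called for 1 gene without pancreas arrays. The change from day 2 to 28 in FVB was called for 2 with a median shift, 2 with only the arrays compared and 2 without pancreas arrays, and from day 2 to 53 for 1 with no filter, array weights, no pancreas arrays or second probe sets. In B6, from day 2 to 28 it was 1 with no filter, only the arrays compared, mean probe sets, no pancreas arrays or probe sets of rank 3, and 0 on second probe sets; from day 28 to 53 it was 1 without pancreas arrays; from day 2 to 53 it was 1 with no filter, mean or second probe sets or those of rank 3. Later against day 2 sham kidneys gave 1 in each strain with array weights. Second probe sets and those of rank 3 were chosen after seeing the data.

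Leaving out 1 array at a time gave 3 to 5 calls in FVB at day 2 (5 without Nx mouse 5), 0 to 2 at day 28 (0 without Nx mouse 7) and 5 to 6 at day 53, and in B6 3 to 5 at day 2, 1 to 3 at day 28 (1 without Nx mouse 3) and 2 to 3 at day 53. The strain difference gave 0 at days 2 and 28, and 2 to 4 at day 53 (2 without B6 sham mouse 6). Changes over time gave 1 to 2, 2 to 3 and 1 to 3 in FVB and 1 to 2, 0 and 1 to 3 in B6, and sham kidneys 4 between strains, 0 to 1 over time in FVB and 0 in B6.

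With mouse number as a replicate block (correlation 0.126), the counts were 3, 3 and 5 in FVB and 5, 3 and 2 in B6, 4 for the strain difference at day 53 and 0 at days 2 and 28; the added calls were Cdkn1b in FVB at day 28 (-0.27, adjusted p = 0.0481), Cdkn1c in B6 at day 2 (-0.52, adjusted p = 0.0454) and Ccng1 in B6 at day 28 (0.28, adjusted p = 0.0273). Values near 2.20 carry no order, so Cdkn2a is limited by signal.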
